A study of Arabidopsis thaliana with 12 samples.

Results

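The genes described here are the plastid peroxiredoxin AT3G52960, the plastid thioredoxin reductase NTRC (AT2G41680), the sulfiredoxin SRX (AT1G31170), the ascorbate enzyme GLDH (AT3G47930) and the plastid lipocalin CHL (AT3G47860). They were chosen by name as thiol redox, ascorbate and lipocalin genes that have a probe annotated with exactly 1 gene, and each has 1 such probe. They are 5 of the 692 single-gene probes among 3439 probes on the array. Transcript levels were measured in total RNA of wild-type Arabidopsis thaliana, ecotype Columbia 0, a small flowering plant used as a laboratory model. The control group holds 6 samples from plants at normal iron, titled H2O. The high iron group holds 6 samples from plants under an iron excess that the labels describe as an oxidative stress, titled pFe. No other treatment or allele is named for either group, and the tissue, plant age, iron dose and duration are not stated in the labels.

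Iron in excess reacts with hydrogen peroxide and yields hydroxyl radicals, which attack lipids, proteins and nucleic acids. Plants remove peroxides partly through cysteine thiols: a peroxiredoxin reduces the peroxide, and thioredoxins or glutaredoxins, fed by reductases, reduce the peroxiredoxin again. Ascorbate is the other main soluble reductant of the plant cell, and lipocalins are small barrel-shaped proteins that bind hydrophobic molecules and protect membranes.

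The deposited values are 1 intensity per probe and sample on a linear scale that ends at 100. The sources used here do not state how they were corrected or scaled, so levels are comparable within a probe and not between probes. The sample medians ranged from 0.555 to 0.618 in control and from 0.352 to 0.446 in high iron samples, and the arrays were therefore quantile normalized. High iron samples 3 and 4 had the lowest medians (0.352 and 0.353) and 278 and 271 values of 0. The other samples had from 123 to 145 values of 0. The part of these 0 values in the changes of samples 3 and 4 was not tested. Log2 values below are normalized, with a lowest level of -3.24, and intensities are as deposited. Within each group, samples 1 and 2, 3 and 4, and 5 and 6 resemble each other, with deviations from the group mean that correlate between 0.56 and 0.82 over all probes. The labels explain neither these 3 sets nor which samples came from separate plants, so the p-values reflect the spread among these samples only, and that spread may be technical. The test, limma over all probes with a Benjamini-Hochberg threshold of 0.05, took the set as a random block (correlation 0.774). It called 491 of 3439 probes, a background of 14.3%, with 8.23% higher and 6.05% lower at high iron.

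Of the 5 genes, GLDH rose at high iron, by 1.98-fold, and 4 did not pass. CHL stood at 1.94 times and AT3G52960 at 0.358 times the control level without passing. The size for AT3G52960 depends on the lowest level set for dim values: its log2 change was -1.48, and -1.26 with that level at the 10th percentile. NTRC and SRX lay nearer to the control level. The share called, 1 of 5, was read against 14.3% of all probes and does not set these genes apart. The median change of the 5 was 0.23 on the log2 scale, beside 0.00 for all probes. Only NTRC differed in direction between the 3 sets, and 53.1% of all probes also kept 1 direction in all 3. Fewer cells of a type and less RNA per cell cannot be told apart in these samples.

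**Figure D1:**
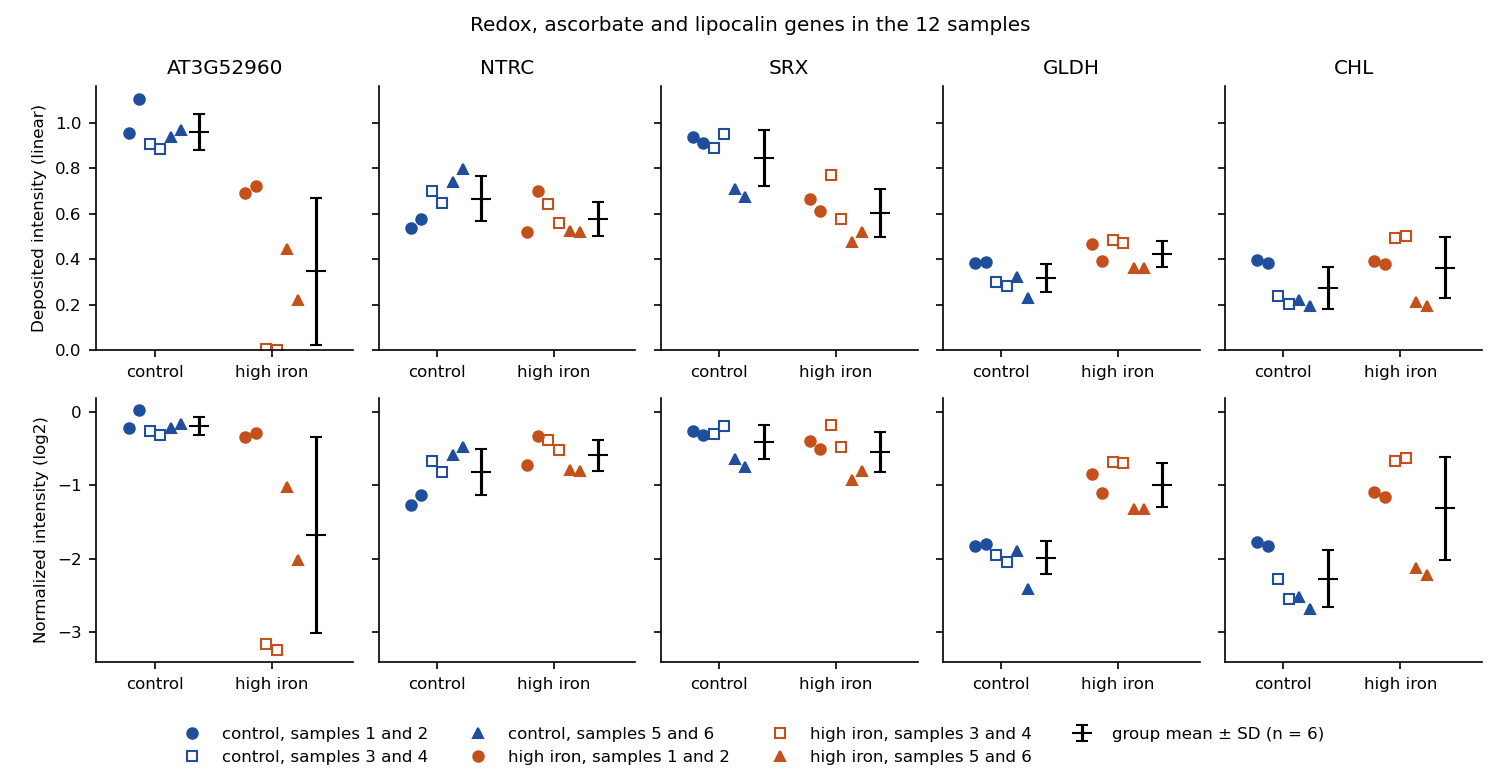
Deposited intensity (upper row, linear) and normalized intensity (lower row, log2) of each gene in the 6 control and 6 high iron samples, with markers for the 3 sets and the group mean ± SD. GLDH separates the groups on the log2 scale, and AT3G52960 spreads from -0.29 down to the lowest level of -3.24 in high iron samples.

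GLDH codes for L-galactono-1,4-lactone dehydrogenase, the mitochondrial enzyme of the last step of ascorbate synthesis. Its log2 value in control samples was lowest at -2.41, with a median of -1.92 and a highest value of -1.80. In high iron samples the lowest was -1.33, the median -0.98 and the highest -0.69. Every high iron sample therefore lay above every control sample, a separation that 9.77% of all probes show in the same direction. The rise was 0.99 on the log2 scale (SE 0.25, 95% interval 0.45 to 1.53, n = 6 per group), with an adjusted p of 0.0226 in limma. The mean deposited intensity was 0.317 ± 0.061 for the control group and 0.424 ± 0.058 for the high iron group (SD, n = 6 each). These intensities overlapped between the groups, but within each number from 1 to 6 the high iron sample was the higher.

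The rise of GLDH was present in each set and was largest in samples 3 and 4. The log2 change was 0.84 in samples 1 and 2, 1.30 in samples 3 and 4 and 0.83 in samples 5 and 6. The corresponding ratios of deposited intensity were 1.12, 1.65 and 1.31. Its call ended over the 6 averages of the sets (adjusted p = 0.0682 in limma, background 2.38%) and when these averages were blocked by replicate number (0.0849). It also ended with deposited values, where GLDH stood at 0.43 while the median of all probes stood at -0.40, and without high iron samples 3 and 4 (0.83, adjusted p = 0.0866).

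CHL codes for the plastid lipocalin, a protein of the thylakoid lumen that limits the peroxidation of thylakoid lipids. In control samples its log2 value ran from -2.68 over a median of -2.40 to -1.77. In high iron samples it ran from -2.23 over a median of -1.12 to -0.63. The groups overlapped, because high iron samples 5 and 6 lay below control samples 1 and 2. CHL stood at 0.95 on the log2 scale (SE 0.33, 95% interval 0.23 to 1.68, adjusted p = 0.0783 in limma) and did not pass.

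The value of CHL rested mostly on samples 3 and 4, whose high iron arrays held the most values of 0. There its log2 change was 1.76, against 0.68 in samples 1 and 2 and 0.43 in samples 5 and 6. As deposited, the ratio of high iron to control was 2.25 in samples 3 and 4 but 0.990 and 0.977 in the other sets. Without high iron samples 3 and 4 the log2 change was 0.62. CHL passed in limma with the 12 samples taken as independent (adjusted p = 0.0339, background 33.4%) and with the replicate number as a block (0.0212, background 40.5%). CHL did not pass over the 6 averages (0.266) or with the replicate block over them (0.167). It passed with array weights (0.00547, background 31.2%) and without samples 5 and 6 of both groups (0.026, background 12.8%). Its probe is the 1 of the 5 that lies among the dimmest 25 percent.

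**Figure D2:**
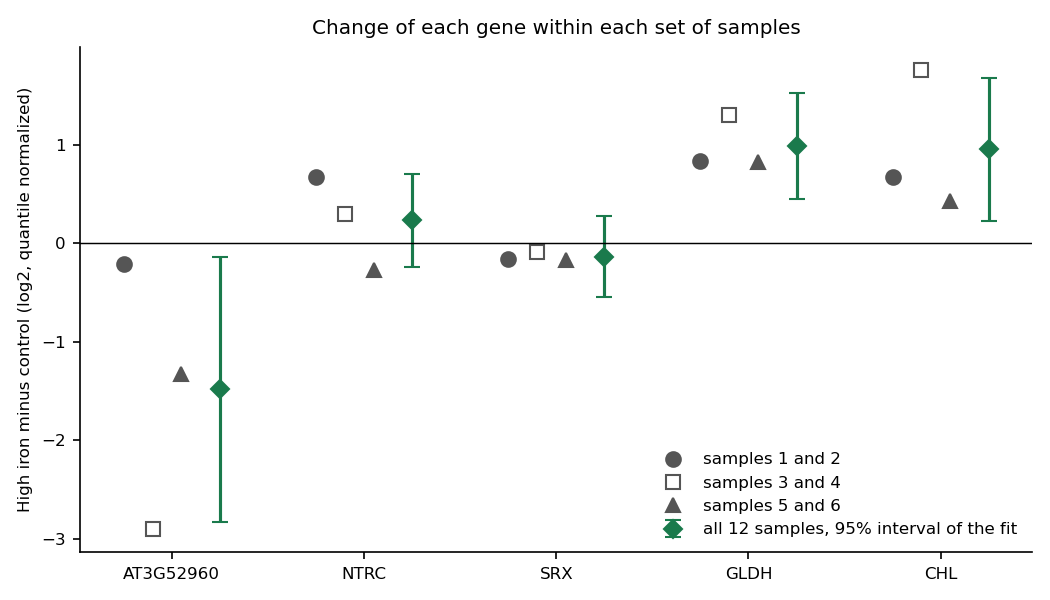
Log2 change from control to high iron of each gene, as the mean of each set of samples (grey markers) and over all 12 samples with the 95% interval of the fit (green diamonds). GLDH lies between 0.83 and 1.30 in the 3 sets, CHL between 0.43 and 1.76, SRX between -0.17 and -0.08, and AT3G52960 between -2.91 and -0.21.

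AT3G52960 codes for a plastid peroxiredoxin of the type II group, which reduces hydrogen peroxide and alkyl hydroperoxides in the stroma. Control samples were close together, with log2 values of -0.32 at the lowest, -0.23 at the median and 0.02 at the highest. High iron samples ran from the lowest level of -3.24 over a median of -1.52 to -0.29. High iron samples 1 and 2 lay just below and within the control range, samples 5 and 6 well below it, and samples 3 and 4 next to and at the lowest level. The deposited intensities in high iron were 0.689 and 0.722 in samples 1 and 2, 0.00482 and 0 in samples 3 and 4, and 0.443 and 0.222 in samples 5 and 6. As deposited, all 6 lay below the lowest control intensity of 0.885, which 27.4% of all probes show in this direction.

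The log2 change of AT3G52960 was -1.48 (SE 0.61, 95% interval -2.83 to -0.14), and it did not pass (adjusted p = 0.131 in limma). By sets it was -0.21, -2.91 and -1.33. Only 0.814% of all probes had as low a change, but its standard error was also the largest of the 5 genes. It passed in limma with the 12 samples taken as independent (adjusted p = 0.0462, background 33.4%) and with the replicate number as a block (0.0447, background 40.5%). It did not pass over the 6 averages (0.286) or with the replicate block over them (0.217), and stood at -0.72 without high iron samples 3 and 4 (0.422). With array weights it stood at -0.58.

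Of the 4 probes with the nearest numbers, 3 were also low in high iron samples 3 to 6. The probe just before it in number changed by -2.02 and the probe just after it by -1.80, both passing in limma (adjusted p = 0.0304 and 0.0029). Each lay at the lowest level in 4 of 6 high iron samples and above it in all control samples. The second probe after AT3G52960 stood at -1.29 (adjusted p = 0.0794), with 3 of 6 high iron values at the lowest level. The second probe before it lay at the lowest level in all 12 samples and so could not show a fall. AT3G52960 had a mean of -0.20 in control samples and of -1.52 in high iron samples 5 and 6. The control means of the 3 low neighbours were -0.33, -1.03 and -1.27. Levels of different probes are not comparable, so these means are not ranked. From 3 to 10 places away on both sides, the means of high iron samples 3 and 4 were at the lowest level only where the control mean was there too. Over the array, 49 of 3439 probes (1.42%) were at the lowest level in high iron samples 3 and 4 and above it in all control samples, and 21 of these 49 were next to another one. The sources used here do not state whether a number marks a place on the array, and the part of the neighbours in the low values of AT3G52960 was not tested.

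**Figure D3:**
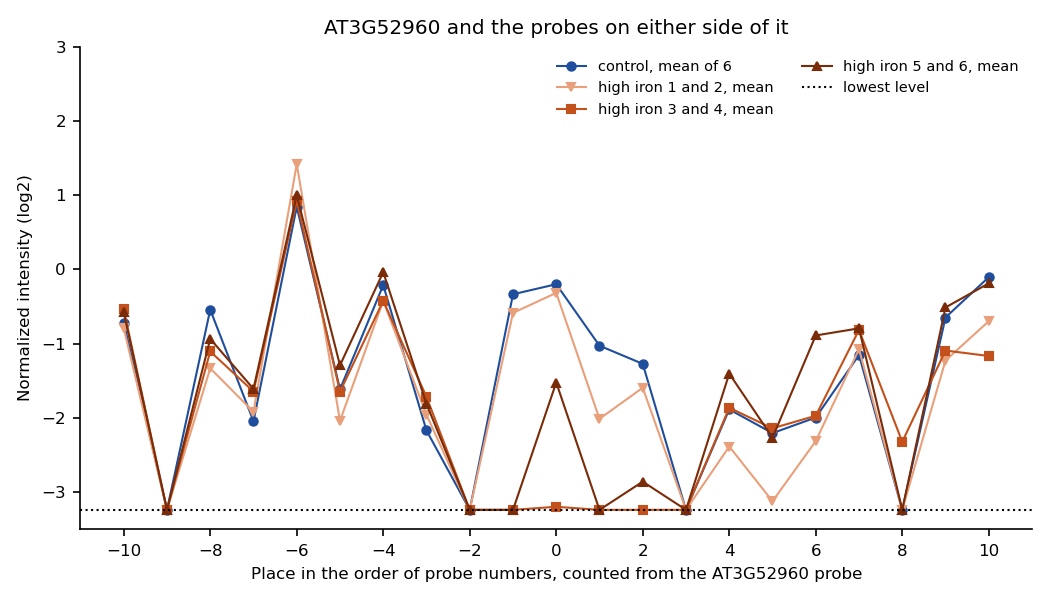
Normalized intensity (log2) of the AT3G52960 probe, at 0, and of the 10 probes before and after it in number, as the mean of the 6 control samples and of each high iron set. In high iron samples 3 to 6 the probe before AT3G52960 and the 2 probes after it lie between -3.24, the lowest level (dotted), and -2.86, while their control means lie between -1.27 and -0.33. AT3G52960 itself stands at -3.20 in samples 3 and 4 and at -1.52 in samples 5 and 6.

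Among the 4 nearest probes of NTRC, GLDH and CHL, 0 values lay at the lowest level. The 4 nearest probes had a median change of 0.10 for NTRC, 0.35 for SRX, 0.47 for GLDH and -0.15 for CHL, against -1.55 for AT3G52960. The last median includes the neighbour that lay at the lowest level in every sample. Single neighbours also passed in limma: the probe just after NTRC at 1.63 (adjusted p = 0.00215) and the probe just before SRX at 0.80 (0.0314). For GLDH all 4 neighbours had values above 0, between 0.37 and 0.59, and none of them passed in limma. When each sample was corrected by a running median over 21 probes in number order, GLDH stood at 0.73 (adjusted p = 0.054) and no longer passed. CHL passed in that fit at 1.13 (0.0438, background 16.1%). AT3G52960 stood at -1.42 and did not pass (0.0936). A median over 21 probes hardly follows a run as short as that of AT3G52960 and its low neighbours. This fit therefore cannot correct AT3G52960 for them.

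NTRC is the plastid NADPH-dependent thioredoxin reductase that carries its own thioredoxin domain and reduces plastid peroxiredoxins. Its control log2 values ran from -1.27 over -0.75 to -0.48, and its high iron values from -0.81 over -0.62 to -0.33, so that the groups overlapped. The change was 0.23 (SE 0.22, 95% interval -0.24 to 0.71, adjusted p = 0.546 in limma). The sets disagreed, with 0.67 in samples 1 and 2, 0.30 in samples 3 and 4 and -0.27 in samples 5 and 6. With deposited values the change was -0.20, where the median of all probes stood at -0.40. After the running-median correction the change was -0.045, so no direction can be given for NTRC.

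SRX codes for sulfiredoxin, which reactivates peroxiredoxins whose catalytic cysteine has been overoxidized. Its control log2 values ran from -0.75 over -0.31 to -0.19 and its high iron values from -0.92 over -0.49 to -0.18. The change was -0.14 (SE 0.19, 95% interval -0.55 to 0.28, adjusted p = 0.713 in limma), with overlapping groups. The sets gave -0.16, -0.08 and -0.17, the narrowest spread among the 5 genes. That small change depends on the scaling: it was 0.033 with arrays scaled to their medians and -0.49 for intensities left as deposited. As deposited, the high iron sample was the lower in all 6 numbers, with ratios by set of 0.692, 0.734 and 0.718. Against the median of all probes, -0.40 on that scale, SRX stood at -0.09.

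**Figure D4:**
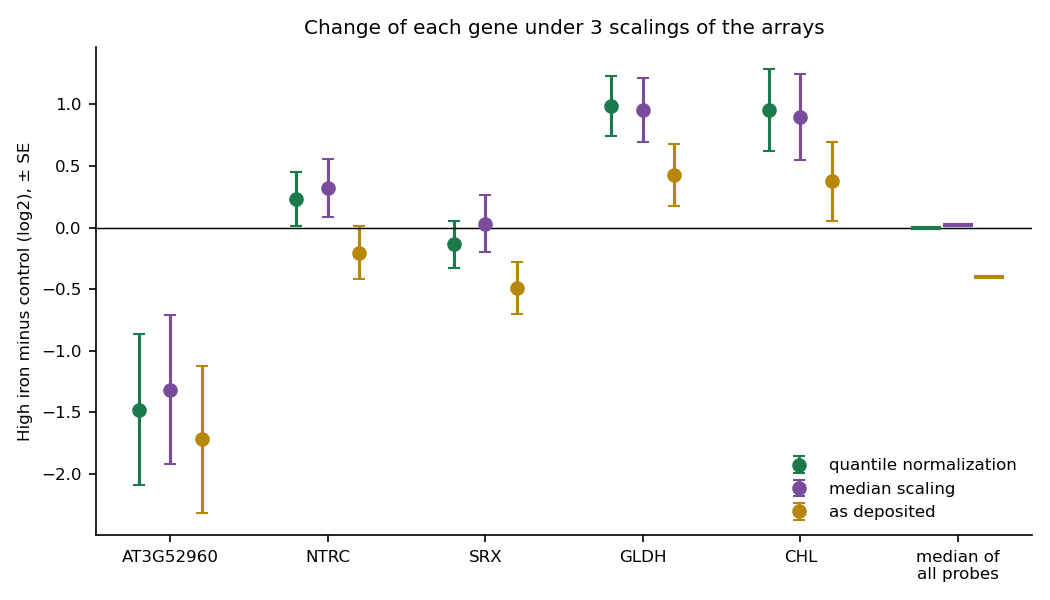
Log2 change ± SE of each gene over 12 samples with quantile normalization, median scaling and deposited values, and the median change of all probes under each. GLDH, CHL and NTRC lie above the median of all probes and AT3G52960 below it under all 3 scalings. The changes of NTRC and SRX themselves switch sign between scalings.

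Gene against gene, the 5 changes were compared in 10 pairs, each by the difference of both log2 values within a sample. Over 12 samples, 6 of 10 pairs differed between the groups in a two-sided exact permutation test with Benjamini-Hochberg adjustment over the 10 pairs. Because samples of a set resemble each other, these p-values are too small. Over the 6 averages the exact permutation test cannot go below p = 0.10, and 0 of 10 pairs passed, with 0 at an unadjusted p under 0.05.

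The largest differences were those of AT3G52960. The difference of its change from that of GLDH was -2.47 log2 units and from that of CHL -2.44, each with an exact permutation adjusted p of 0.00541. From NTRC it was -1.71 (adjusted p = 0.013, exact permutation test), and the difference of -1.34 from SRX did not pass (0.0557). In samples 1 and 2 the difference between AT3G52960 and SRX was only -0.054, and in samples 3 and 4 it was -2.82.

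GLDH and CHL both stood above SRX. The change of SRX minus that of GLDH was -1.12, and minus that of CHL -1.09 (adjusted p = 0.00541 each, exact permutation test), in the same direction in all 3 sets. For NTRC minus GLDH it was -0.76 (adjusted p = 0.018, exact permutation test), but only -0.17 in samples 1 and 2. NTRC did not pass against CHL (0.0947) or against SRX (0.139).

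The changes of GLDH and CHL differed by 0.034 (adjusted p = 0.874, exact permutation test). By sets the difference was 0.16, -0.46 and 0.40, so that equal changes are not shown. Their values also followed each other from sample to sample, with a Pearson correlation of 0.90 over the 12 samples and 0.89 for deviations from the group means. The part of the shared set and array in these correlations was not tested, and they are given as a description. SRX followed GLDH and CHL within the groups, with correlations of deviations of 0.78 to GLDH and 0.78 to CHL, although its mean change lay elsewhere. NTRC correlated with GLDH and CHL at -0.09 and 0.00 within the groups. CHL and GLDH are near neighbours in the annotation, with 4 protein-coding genes between them on chromosome 3, and their probes are 345 places apart in number.

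**Figure D5:**
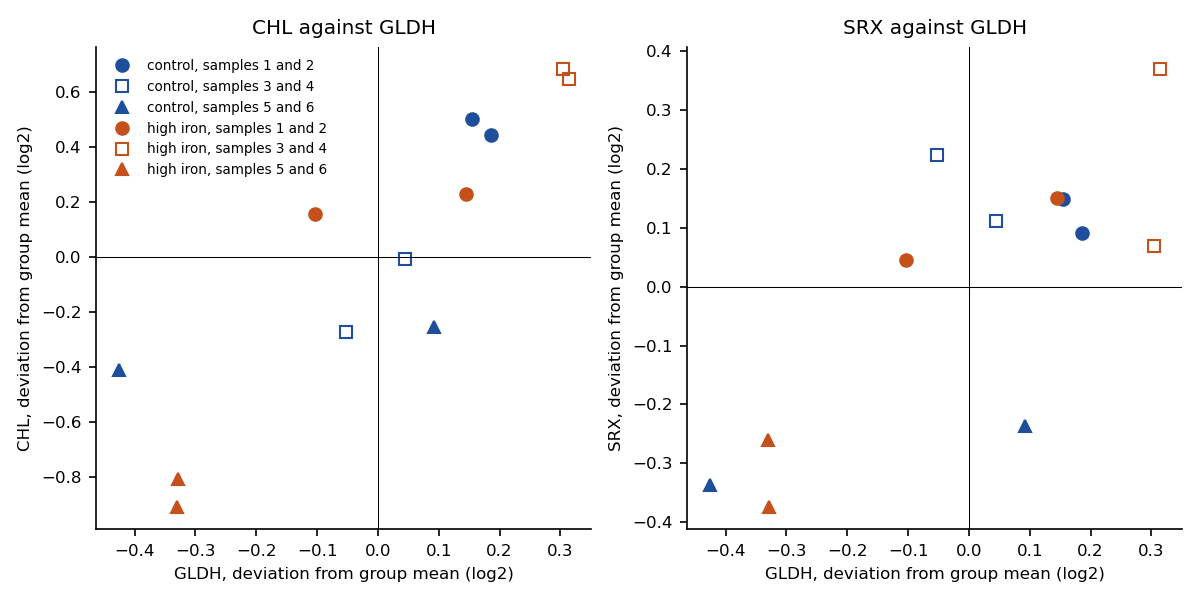
Deviation of each sample from its group mean (log2) for CHL against GLDH and for SRX against GLDH, with colours for the groups and markers for the sets. High iron samples 3 and 4 are highest and high iron samples 5 and 6 among the lowest in CHL and GLDH, and the 12 points correlate at 0.89 and 0.78.

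Genes with the most similar values over the 12 samples were sought among the 504 or 505 other single-gene probes outside the dimmest 25 percent, and their correlations share array and set. For GLDH these were AT4G31060 (Pearson r 0.97) and AT1G65090 (0.96), and of these AT1G65090 rose by 0.89 (SE 0.20, adjusted p = 0.0142 in limma). For CHL they were AT4G30740 and AT2G04540 (0.97 each), and AT2G04540 rose by 0.67 (adjusted p = 0.0451 in limma). For AT3G52960 they were AT2G14660 (0.94) and AT3G55070 (0.90), whose own changes of -0.24 and -0.42 did not pass. SRX was most like AT3G16310 and AT4G02040 (0.92 and 0.91). NTRC had the least similar best matches, GLX2-1, a glyoxalase gene that is only 4 places away in probe number, at 0.80 and AT1G50390 at 0.78.

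The rest of the thiol and ascorbate pathways was thinly covered. Of 106 listed genes of peroxiredoxins, thioredoxins, glutaredoxins, glutathione, ascorbate synthesis and recycling, lipocalins, superoxide dismutases, catalases and ferritins, 7 had a single-gene probe, and 10 others lay only on probes of several genes. Of the 7, 1 rose (GLDH), 0 fell and 6 did not pass, with a median change of 0.23. Besides the 5 genes these were FTRB (AT2G04700), the catalytic subunit of ferredoxin-thioredoxin reductase, which reduces plastid thioredoxins in the light, and CCS (AT1G12520), which delivers copper to superoxide dismutase. FTRB stood at -0.04 (SE 0.08, adjusted p = 0.781 in limma), with control values from -0.42 to -0.28 and high iron values from -0.57 to -0.26. CCS stood at 0.48 (SE 0.44, adjusted p = 0.542). Glutaredoxins, glutathione genes, ascorbate recycling enzymes and ferritins had 0 single-gene probes and were not analysed here.

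The tissue is not labelled. A single-gene probe was present for 6 of 6 leaf photosynthesis markers and for 0 of the root, seed and flower markers. These counts depend on the array and on the choice of lists, and they do not name a tissue. The summed normalized level of the leaf markers ran from 31.4 to 37.6 in control and from 35.0 to 42.1 in high iron samples, and as deposited from 25.5 to 34.2 and from 40.4 to 55.8. These sums are mostly PSBW, a photosystem II subunit with 69.0% to 76.1% of the normalized sum. Because levels are not comparable between probes, that share does not compare transcript amounts. Without it the normalized sums ran from 9.32 to 10.4 in control and from 9.11 to 10.5 in high iron samples. These normalized sums overlapped between the groups. As deposited, the sums did not overlap, either with PSBW or without it. Without PSBW they ran from 8.37 to 9.27 in control and from 9.81 to 11.2 in high iron samples. The share of all probes that separate the groups in this direction as deposited is not given here, so that separation has no background. Of the 6, SBPASE rose, by 0.48 (adjusted p = 0.017 in limma), and 5 did not pass. The part of these markers in the changes of plastid genes was not tested.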

How the data were processed

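The authors deposited 1 intensity per probe and sample, linear, for 3439 probes in 12 samples. The sources used here do not state its scanning, background correction or scaling. Groups came from the source names and numbers from the titles. Probes were named from the platform annotation, with symbols updated through gene numbers in the supplied RefSeq gene table (TAIR10.1), where 690 of 692 single-gene probes matched. No positions are given because no build is named.

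Intensities were quantile normalized, floored at the 5th percentile of positive values (0.106) and log2 transformed. The floor makes the changes of dim probes too small. Changes were tested two-sided with limma 3.58.1 (lmFit, eBayes with trend) in R 4.3.3, with the set of samples as a random block (duplicateCorrelation, statmod 1.5.0). Samples left out in turn kept the normalization of all 12.

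For the numbers 1 to 6, deviations of the control and the high iron sample correlated at 0.52, 0.51, 0.21, 0.13, 0.52 and 0.51. The labels state no pairing, and these values cannot tell pairing by number from pairing by set, because samples of a set resemble each other. Among the tests, only the alternatives with a replicate block paired the groups. The main fit and the permutation test did not. The members, lists, test and alternatives were chosen with earlier results of these data known. Genes named are the 5 members, single-gene probes of the redox lists and, for each member, the 2 most correlated single-gene probes. SBPASE was named as the 1 leaf marker that passed, after its value was seen, and neighbouring probes are given by number only. The number of arrays limits the precision.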

Additional observations from a re-analysis of the deposited data

Results flagged for a closer look

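AT4G31060, the gene whose values most resembled those of GLDH, had 1 control sample apart from the other 5. Control sample 6 had a log2 value of -1.58, and its distance to the next sample was 0.736 of the range of the group. This was 1 of 46 groups examined, where about 1 in 20 stands apart by chance.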

How the results depend on the processing

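The number of called probes was 491, and it was 1149 with the 12 samples taken as independent, 1392 with the replicate block over 12 samples, 82 over the 6 averages, and 1 over the averages with the replicate block. It was 959 with deposited values (166 higher and 793 lower, against 283 and 208), 1072 with array weights, 226 without samples 1 and 2 of both groups and 140 without samples 3 and 4. Median scaling gave 543 higher and 147 lower. Leaving out 1 sample gave 387 to 486 probes. GLDH did not pass over the averages or with the replicate block over them (0.99 each), with deposited values (0.43), without samples 1 and 2 (1.06) or 3 and 4 (0.83) of both groups, without high iron samples 3 and 4 (0.83) or with the running median removed (0.73). With 1 sample left out GLDH ranged from 0.90 to 1.06 and passed in 11 of 12 cases, the exception being without high iron sample 4 (adjusted p = 0.052). AT3G52960 passed at -1.48 with 12 independent samples and with the replicate block over them, and CHL at 0.95 in both; with the replicate block over the 6 averages both did not pass (adjusted p = 0.217 and 0.167). CHL also passed with array weights (1.13), without samples 5 and 6 of both groups (1.22) and with the running median removed (1.13), an alternative chosen after seeing the data. Signs turned for SRX after median scaling (0.033) and for NTRC with deposited values (-0.20) and with the running median removed (-0.045). Differing gene pairs numbered 6, with 5 to 7 when 1 sample was left out and 0 over the averages, where the smallest possible p is 0.10. Without samples 3 and 4 of both groups they were 0 in the exact permutation test, where 4 had an unadjusted p under 0.05 and the smallest possible p is 0.0286. The other 154 values kept their direction and side of the threshold, or for counts stayed within 1.5 times; the cause of the changes was not tested. CHL was not tested without the dimmest 25 percent of probes, to which it belongs. Without a floor, values of 0 were missing, so AT3G52960 lost high iron sample 4.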
